A study of Rattus norvegicus with 21 samples.

Results

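The 9 genes described here encode small leucine-rich proteoglycans (Dcn, Bgn, Lum, Fmod and Ogn) and proteins of elastic fibres and their microfibrils (Fbn1, Mfap4, Mfap5 and Eln). They were taken by symbol from the 14218 genes of the array table, and all 9 were measured. Each is represented by its probe set with the highest mean over 21 arrays. Ogn has 3 further probe sets, and Eln and Fbn1 have 1 each. The study followed intrahepatic cholangiocarcinoma, a bile duct cancer inside the liver, in male young adult Fischer 344 rats. The tumours are called BDEneu, the name of rat bile duct epithelial cells transformed by an activated neu oncogene, so all of them stem from 1 cell line. On each of days 10, 15 and 25 after they had been inoculated, 3 rats gave a tumour and a sample of their right liver lobe, and those of day 25 gave a peritoneal metastasis as well. The 21 arrays thus form 7 groups of 3 from 9 rats. The labels call the liver lobe normal, but every lobe came from a rat that carried a tumour, so no liver of a tumour-free rat serves as the control here. The description field of the day 25 livers names another day than their titles, and the titles were used.

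Small leucine-rich proteoglycans are secreted proteins built of leucine-rich repeats. Most of them carry glycosaminoglycan chains, bind collagen and govern the width and spacing of its fibrils. Decorin and biglycan also bind TGF-beta. Elastic fibres have a core of cross-linked elastin on a scaffold of fibrillin microfibrils. In a normal liver such matrix lies in portal tracts and around vessels, and it is made by portal fibroblasts, hepatic stellate cells and vessel walls. In scarring and in the dense stroma of bile duct cancer it is made largely by activated fibroblasts.

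Levels are log2 values from RMA, and a difference of 1 is a 2-fold change. Array medians lay between 5.98 and 6.06, so a level under 6 lies in the lower part of an array's probe sets. A gene was called where limma's adjusted p (Benjamini-Hochberg over all genes) was under 0.05. Changes are given with the standard error (SE), levels with the SD. The tissue labels were checked against markers. The mean over 5 bile duct markers was 11.76 to 12.57 on tumour and metastasis arrays and 5.48 to 8.03 on liver arrays, with the liver of rat 7 highest among the livers. The mean over 10 hepatocyte markers was 12.67 to 13.31 in livers, 8.28 to 12.23 in tumours and 6.03 to 7.41 in metastases. On bulk arrays, fewer cells of a type and less RNA per cell cannot be told apart.

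RefSeq windows of the 250 bases before the start site (rat build GRCr8) were at hand for 5 of the 9 genes, and 3 of them overlap the annotated span of the same gene. The other two, for Mfap5 and Fmod, are shown because both genes were below the lowest array median in every liver group and above it in every tumour group.

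Mfap5 (GRCr8 chr4:157399669-157399918, plus strand): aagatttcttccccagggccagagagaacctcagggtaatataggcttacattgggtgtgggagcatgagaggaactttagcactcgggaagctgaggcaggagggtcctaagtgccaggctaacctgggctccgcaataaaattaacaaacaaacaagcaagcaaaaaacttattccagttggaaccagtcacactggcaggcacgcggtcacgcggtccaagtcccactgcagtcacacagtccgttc
Fmod (GRCr8 chr13:48045317-48045566, plus strand): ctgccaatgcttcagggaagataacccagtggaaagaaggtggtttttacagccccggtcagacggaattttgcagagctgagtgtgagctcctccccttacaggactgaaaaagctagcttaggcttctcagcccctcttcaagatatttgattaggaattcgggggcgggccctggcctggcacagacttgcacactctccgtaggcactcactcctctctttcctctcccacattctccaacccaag

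Both windows were searched on both strands for a TATA box (TATAAA), the AP-1 motif (TGANTCA) and the CAGA element of SMAD proteins (CAGACA), which do not overlap one another. Neither window holds any of the 3, so no base is in capitals. Of the 3 windows not shown, that of Ogn holds TATAAA and that of Fbn1 holds CAGACA. Of 33469 windows of this length, 12.9% hold TATAAA, 6.34% hold TGANTCA and 17.2% hold CAGACA. GC content was 51.6% for Mfap5 and 52.8% for Fmod, against a median of 51.2% over all windows.

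Tumours were compared with livers to ask which matrix genes set the tumour apart from the organ it grows in. Over the 3 days 8 of the 9 genes were higher in tumour (n = 9 and 9) and none was lower, where 36.8% of all genes were called higher. Of these, 7 were higher by at least 2-fold, against 12.7% of all genes. The median change of the 9 genes was 2.67, and that of all genes was -0.03. The arrays of both tissues did not overlap for 6 genes (Dcn, Lum, Fmod, Fbn1, Mfap4 and Mfap5), against 19.7% of all genes. Ogn was the gene without a call. The tumours held the hepatocyte signal given above, whose part in these differences was not tested. Myofibroblast and stellate cell markers moved the same way, with 8 of 9 called higher in tumour and 1, Lrat of quiescent stellate cells, called lower. Their mean level was 6.57 to 7.52 in livers and 7.88 to 9.20 in tumours, and their part in the differences was not tested.

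**Figure D1:**
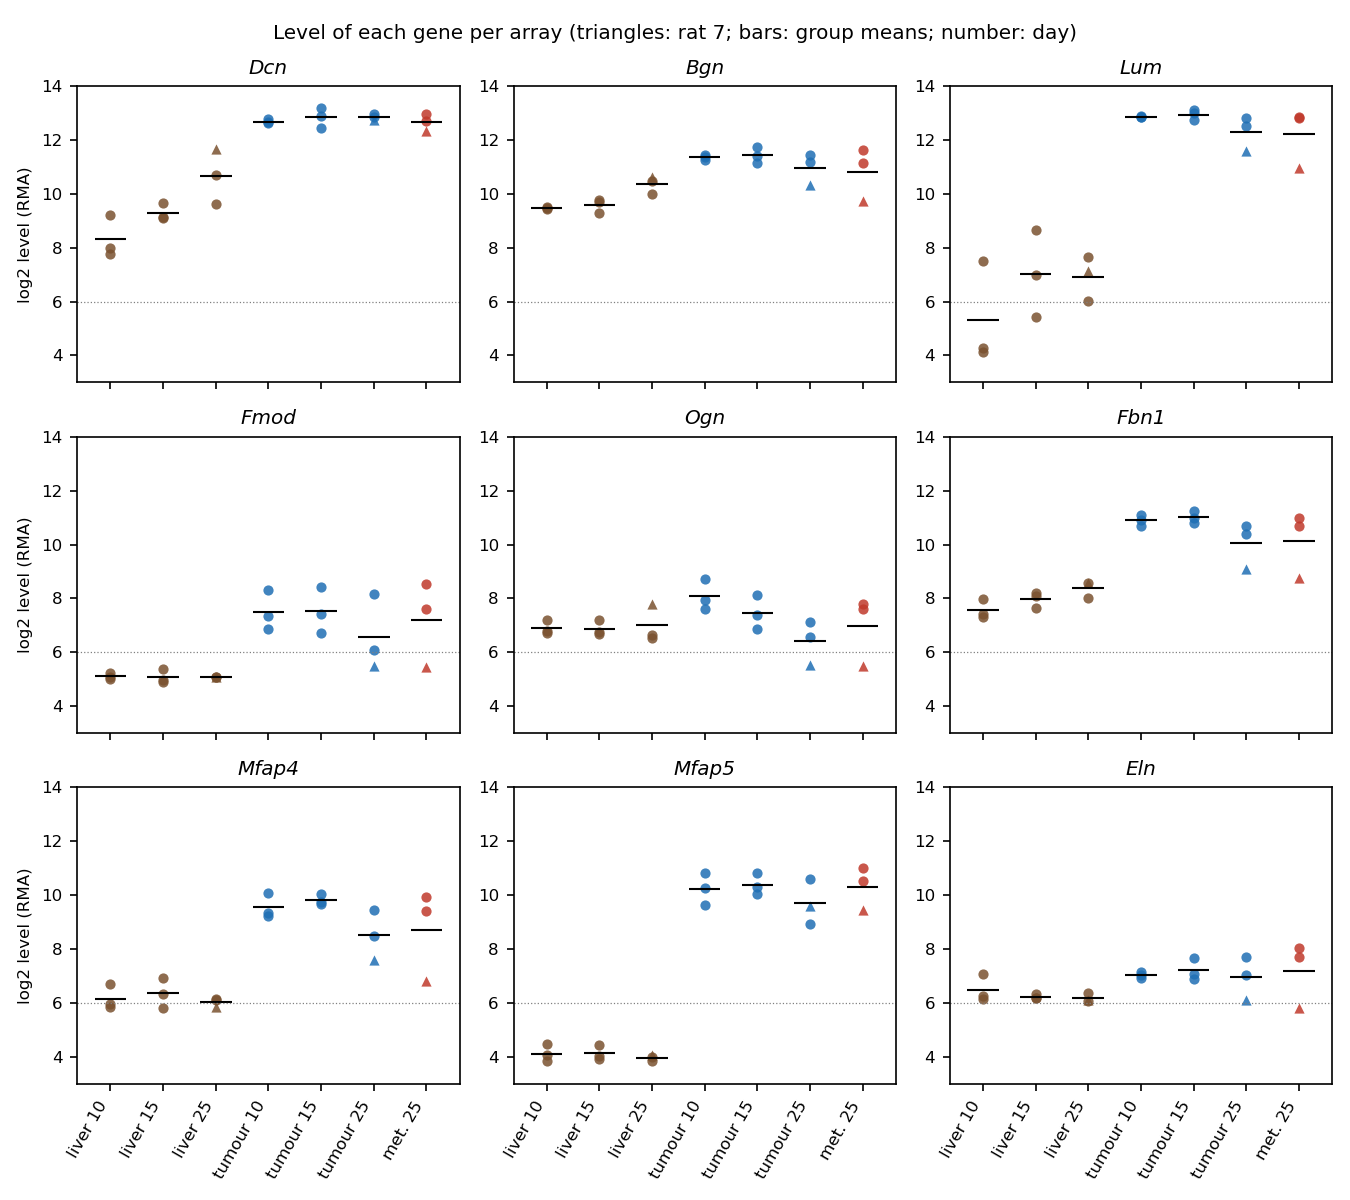
Log2 level of each of the 9 genes on every array, by tissue and day (brown: liver, blue: tumour, red: metastasis). Each point is 1 rat, bars are group means, triangles mark rat 7, and the dotted line at 6 is near the array medians. Lum and Mfap5 show the widest gap between liver and tumour, whereas Ogn and Eln overlap.

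Lum encodes lumican, a keratan sulfate proteoglycan that binds collagen fibrils. Its level in the livers was 4.12, 7.52 and 4.26 at day 10 (rats 1 to 3), 6.98, 8.65 and 5.41 at day 15 (rats 4 to 6) and 7.13, 7.65 and 6.02 at day 25 (rats 7 to 9). The tumours of the same rats were at 12.84, 12.88 and 12.85, at 12.99, 12.72 and 13.10, and at 11.59, 12.50 and 12.81. Every tumour lay above every liver, and the livers of day 10 spread over more than 3 log2 units while the tumours of that day were nearly equal. The change over the 3 days was 6.28 (SE 0.48, adjusted p = 6.5e-09). Within rats the tumour exceeded the liver by 4.08 (rat 5) to 8.73 (rat 1). The livers of rats 1 and 3 lay near the bottom of the scale, which bounds the size of their differences.

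Dcn encodes decorin, which carries a single glycosaminoglycan chain, binds collagen and holds TGF-beta. Livers were at 7.76, 9.21 and 8.00 at day 10, at 9.65, 9.15 and 9.09 at day 15 and at 11.66, 10.71 and 9.64 at day 25. Tumours were at 12.61, 12.76 and 12.67, at 12.88, 12.45 and 13.18, and at 12.76, 12.96 and 12.85. The tumour levels stayed within 1 log2 unit of one another, and the tumour means of each day ranked above at least 99% of genes on the same arrays. The change was 3.36 (SE 0.23, adjusted p = 1.9e-09). It was called at each day, at 4.36 (SE 0.40), 3.54 and 2.18 for days 10, 15 and 25.

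Bgn encodes biglycan, a relative of decorin that is also a danger signal to innate immune cells. Livers were at 9.42, 9.46 and 9.51, at 9.79, 9.28 and 9.70, and at 10.63, 10.48 and 9.99 for days 10, 15 and 25. Tumours were at 11.27, 11.45 and 11.36, at 11.73, 11.16 and 11.39, and at 10.31, 11.18 and 11.42. The tissues overlapped only through the day 25 tumour of rat 7, which was below its own liver. The change over the days was 1.44 (SE 0.21, adjusted p = 1.1e-05). At day 25 it was uncalled, at 0.60 (SE 0.36, adjusted p = 0.18), and without the tumour and metastasis of rat 7 it was called at 0.93 (adjusted p = 0.0021). That exclusion was chosen after seeing the data.

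Fmod encodes fibromodulin, a keratan sulfate proteoglycan that binds collagen and steers its cross-linking. The 9 livers lay between 4.89 and 5.37, with a median of 5.09. Tumours were at 7.36, 8.30 and 6.86 at day 10, at 8.42, 7.43 and 6.71 at day 15 and at 5.50, 6.10 and 8.15 at day 25. Tumours of 1 day thus differed widely, while the livers lay close together, below the lowest array median. The change over the days was 2.11 (SE 0.40, adjusted p = 0.00015). At day 25 it was 1.50 (SE 0.69, adjusted p = 0.081), uncalled. Without day 25 tumour replicate 1, from rat 7, it was called at 2.04 (adjusted p = 0.033).

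Ogn encodes osteoglycin, also called mimecan, which takes part in collagen fibril assembly. Livers lay between 6.55 and 7.80, with a median of 6.75. Tumours were at 7.59, 8.73 and 7.93 at day 10, at 8.13, 7.39 and 6.86 at day 15 and at 5.53, 6.59 and 7.13 at day 25. The day 10 tumours were all above the livers of that day, which held for 36.8% of all genes. In rat 7 the difference of tumour and liver was -2.28. The change over the days was 0.39 (SE 0.32, adjusted p = 0.27). Without the tumour and metastasis of rat 7, an exclusion chosen after seeing the data, it was 0.54 (adjusted p = 0.037), called. The other 3 probe sets of Ogn gave 0.48, 0.73 and 0.57. By day the changes were 1.18 (SE 0.55, adjusted p = 0.075), 0.59 (adjusted p = 0.39) and -0.59 (adjusted p = 0.39). In a fit of the day 10 groups alone the first was called, at adjusted p = 0.0047.

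Among the elastic fibre genes Mfap5 differed most. It encodes a small glycoprotein that binds fibrillin microfibrils. The 9 livers lay between 3.84 and 4.49, with a median of 4.02, which is near the lowest values of the whole table (3.16). Tumours were at 10.25, 10.81 and 9.65, at 10.81, 10.06 and 10.33, and at 9.58, 8.94 and 10.62 for days 10, 15 and 25. The change was 6.04 (SE 0.24, adjusted p = 2e-12). Within rats it ran from 5.08 (rat 8) to 6.87 (rat 4). A liver level this near the bottom of the scale bounds the size of the change.

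Mfap4 encodes a fibrinogen-like glycoprotein that binds elastin and fibrillin. Livers lay between 5.81 and 6.93, with a median of 6.10. Tumours were at 9.34, 10.07 and 9.23, at 9.69 to 10.04 and at 7.61, 8.49 and 9.46 for days 10, 15 and 25. No liver reached the lowest tumour, which was that of rat 7. The change was 3.11 (SE 0.35, adjusted p = 5.3e-07), and it was called at each day (3.38, 3.47 and 2.48, SE 0.60).

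Fbn1 encodes fibrillin 1, the main protein of microfibrils, which also tether latent TGF-beta. Livers lay between 7.31 and 8.59, with a median of 8.02. Tumours were at 10.92, 11.09 and 10.68, at 11.25, 10.81 and 10.97, and at 9.08, 10.38 and 10.69. Here too the tumour of rat 7 was the lowest of the 9 and still above every liver. The change was 2.67 (SE 0.27, adjusted p = 1.4e-07), and 2.71 by the second probe set. At the single days it was 3.33, 3.04 and 1.65 (SE 0.46), each called.

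Eln encodes tropoelastin, the soluble unit of elastin. Livers lay between 6.08 and 7.08, with a median of 6.19. Tumours were at 6.93, 7.04 and 7.15, at 6.91, 7.09 and 7.67, and at 6.10, 7.03 and 7.73. The change over the days was 0.76 (SE 0.27, adjusted p = 0.016), the smallest among the 8 called genes. The second probe set of Eln did not differ beyond its error, at 0.02 (SE 0.07, adjusted p = 0.8), with group means of 5.02 to 5.25. No single day reached a call (adjusted p = 0.31, 0.085 and 0.18). At day 25 the change of 0.76 became 1.19 and was called (adjusted p = 0.0025) without the tumour and metastasis of rat 7. This exclusion, too, was chosen after seeing the data. At day 15 the change of 0.98 was called with the rat as a fixed block (adjusted p = 0.041) and in a fit of the day 15 groups alone (adjusted p = 0.0078).

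**Figure D2:**
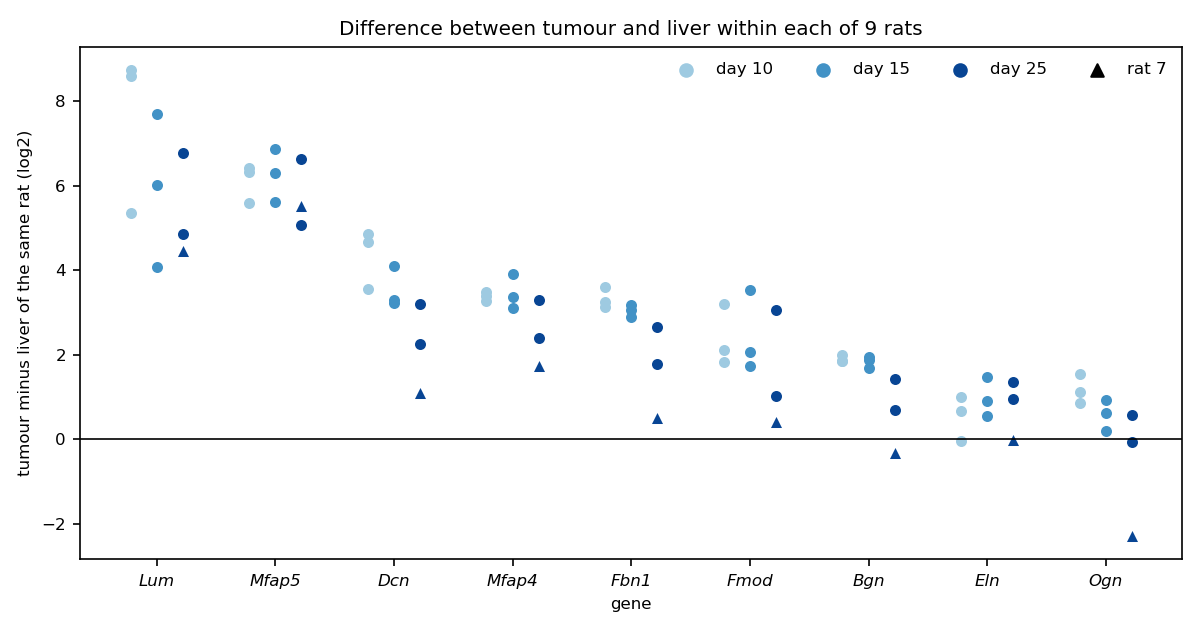
Tumour minus liver of the same rat on the log2 scale, for each gene and each of 9 rats, coloured by day, with a triangle for rat 7. Lum and Mfap5 exceed 4 in every rat, and rat 7 lies lowest for Dcn, Mfap4, Fbn1, Fmod, Bgn and Ogn.

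At single days 7, 7 and 5 of the 9 genes were called higher in tumour at days 10, 15 and 25 and none was called lower, where 30.4, 28.2 and 27.7% of all genes were called higher. Without the tumour and metastasis of rat 7, an exclusion chosen after seeing the data, the day 25 count was 8. Both arrays were low for most of these genes, so taking them out favours more calls. The metastasis is not part of this comparison and acts only through the shared estimate of the spread. With 1 array left out at a time, the day 25 count ran from 5 to 6. Tests of whether the gap between tumour and liver changed from one day to another called none of the 9 genes with limma. At an unadjusted p under 0.05 they held 0 of the 9 between days 10 and 15, 4 between days 10 and 25 and 3 between days 15 and 25. The same share of all genes was 6.88, 17.6 and 9.02%, and 0, 1.46 and 0% of all genes were called. Between days 10 and 25 the difference of Dcn fell by 2.17 (SE 0.57, adjusted p = 0.069). This change was called with the rat as a random block (adjusted p = 0.043), with the rat as a fixed block it was not (adjusted p = 0.084), and it was called without day 25 liver replicate 3 (-2.69, adjusted p = 0.011). Bgn was at -1.29 (adjusted p = 0.21), Fbn1 at -1.68 (adjusted p = 0.2) and Ogn at -1.77 (adjusted p = 0.25).

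The liver lobes were compared between days to ask what changed in the liver that holds the tumour. Dcn rose from day 10 to day 25, and it was the only one of the 9 genes called, where 5.33% of all genes were called higher. Its mean was 8.33 ± 0.78 (SD, n = 3) at day 10, 9.30 ± 0.31 at day 15 and 10.67 ± 1.01 at day 25. All 3 day 25 livers lay above all day 10 livers. The change was 2.34 (SE 0.40, adjusted p = 0.003), larger than in 99.8% of genes. With 1 liver left out at a time it ran from 1.85 (adjusted p = 0.012), without the liver of rat 7, which was highest, to 2.86. It was uncalled (adjusted p = 0.076) in a fit of the day 10 and day 25 livers alone. From day 15 to day 25 limma called none of the 9 and 2.2% of all genes, with 2 of the 9 and 15.3% of all genes at an unadjusted p under 0.05. The change of Dcn was 1.37 (SE 0.40, adjusted p = 0.094), called at 1.89 (adjusted p = 0.011) without day 25 liver replicate 3.

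The livers of day 25 also lay above those of day 10 without overlap for Bgn and Fbn1, so that 3 of the 9 genes were apart, against 15.1% of all genes. Bgn went from 9.47 ± 0.05 to 10.37 ± 0.33 (change 0.90, SE 0.36, adjusted p = 0.13), and it was called in a fit of these groups alone (adjusted p = 0.042). Fbn1 went from 7.57 ± 0.35 to 8.40 ± 0.32 (change 0.83, SE 0.46, adjusted p = 0.28). Lum was at 1.63 (SE 0.84, adjusted p = 0.24). Without day 10 liver replicate 2, whose Lum level of 7.52 stood above the 4.12 and 4.26 of the other livers of that day, its change was 2.74 and called (adjusted p = 0.047). That liver, of rat 2, also had a skeletal muscle marker mean of 6.61, against 4.49 and 4.57 in the others of day 10, whose part was not tested. Fmod, Ogn, Mfap4, Mfap5 and Eln changed by -0.30 to 0.10, all uncalled. From day 10 to day 15 none of the 9 was called, with Dcn at 0.97 (SE 0.40, adjusted p = 0.42). limma called 0.0281% of all genes there, and 10.1% of all genes and 1 of the 9 had an unadjusted p under 0.05.

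Other matrix genes were measured in the same livers. From day 10 to day 25, 5.33% of all genes were called higher and 3.77% lower, shares against which the counts below stand. Of 10 fibrillar and fibril-associated collagens 3 were called higher at day 25 and none lower (median 1.10), with Col12a1 at 1.58 (SE 0.47, adjusted p = 0.048) and Col1a2 at 1.42 (SE 0.42, adjusted p = 0.045). The mean over these collagens was 7.96 to 8.58 at day 10, 8.64 to 8.90 at day 15 and 8.68 to 9.59 at day 25. Of 19 other elastic fibre genes 3 were called higher, with the cross-linking enzyme gene Lox at 1.90 and Ltbp1, a microfibril protein that stores TGF-beta, at 1.43. Of 9 other small leucine-rich proteoglycans 2 were called lower, Omd at -2.01 and Tsku at -1.70. Pcolce, which aids the trimming of procollagen, was at 2.73 (SE 0.57, adjusted p = 0.0085) and Chsy1, which lengthens chondroitin chains, at 1.52. Myofibroblast and stellate cell markers had 1 of 9 called higher, Rgs5 of pericytes at 2.90. Their mean level was 6.57 to 6.78 at day 10 and 7.19 to 7.52 at day 25, and their part in the Dcn change was not tested. Bile duct markers had 2 of 5 called higher, with means of 5.48 to 5.86 at day 10 and 5.78 to 8.03 at day 25. Macrophage markers had 4 of 6 called higher (median 0.73), with means of 9.02 to 9.28 at day 10 and 9.59 to 10.17 at day 25. Adipocyte marker means were 5.96 to 6.07 and 6.32 to 6.67, with 1 of 5 called higher, Fabp4, which macrophages also express. The part of these markers in the Dcn change was not tested.

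**Figure D3:**
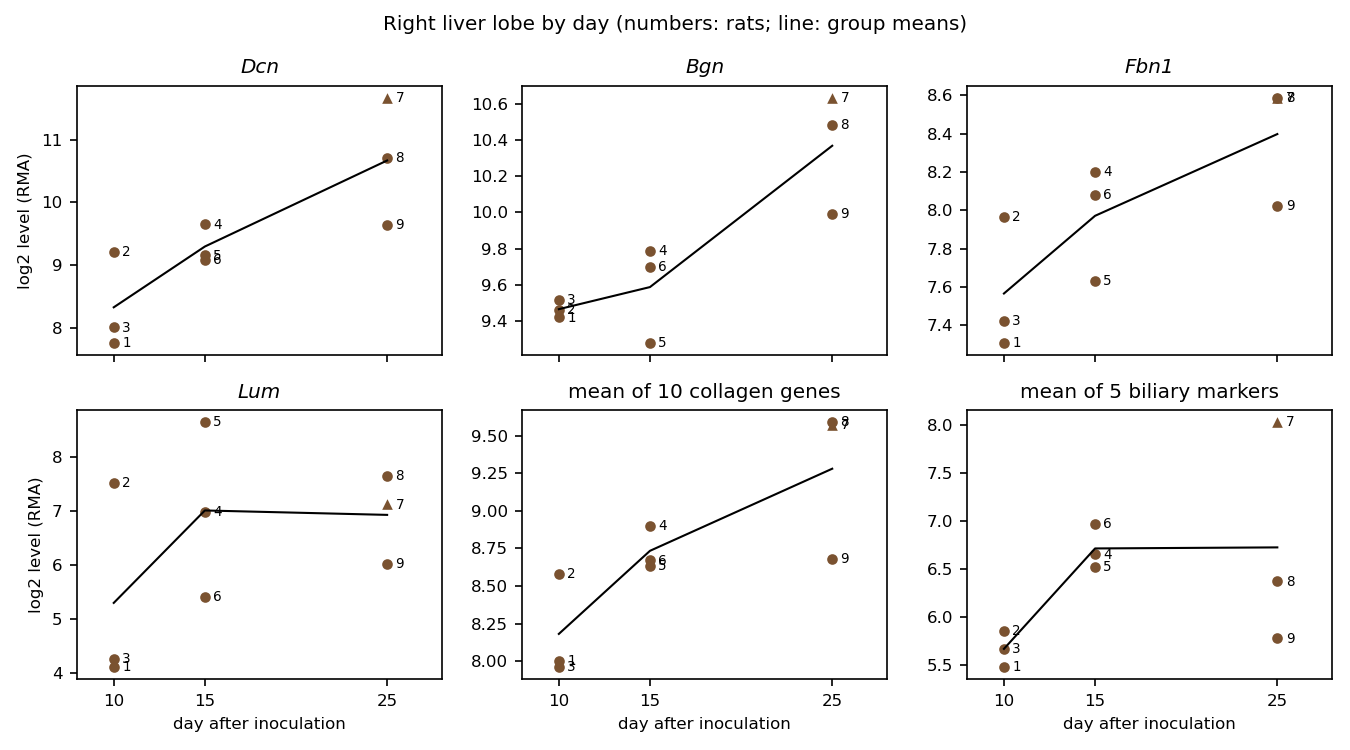
Right liver lobe by day. The panels show log2 levels of Dcn, Bgn, Fbn1 and Lum and the mean log2 level of 10 collagen and 5 bile duct marker genes, with a point per rat (numbered), a triangle for rat 7 and a line through the group means. Dcn rises from 8.33 to 10.67, and rat 7 is highest for Dcn and for the bile duct markers.

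Tumours of different days were compared to ask whether this matrix changed as they grew. None of the 9 genes was called from day 10 to day 25, where limma called 0.0563% of all genes. At an unadjusted p under 0.05 there was 1 of the 9 genes, against 17.2% of all genes. The changes ran from -1.67 (Ogn, SE 0.55, adjusted p = 0.18) to 0.17 (Dcn, SE 0.40, adjusted p = 0.85), with a median of -0.56. The arrays of both days did not overlap for 2 of the 9 genes, Ogn and Lum, both lower at day 25, against 15% of all genes. From day 10 to day 15 the changes ran from -0.63 (Ogn) to 0.28 (Mfap4), and from day 15 to day 25 from -1.30 (Mfap4) to 0.02 (Dcn). limma called 0% of all genes, and none of the 9, in either of these, while 2.46 and 8.45% of all genes, and 0 and 1 of the 9, had an unadjusted p under 0.05. The order of the means by day differed among genes. Dcn, at 12.68 ± 0.07, 12.84 ± 0.36 and 12.85 ± 0.10, showed no difference between days beyond its spread. Ogn, at 8.09 ± 0.58, 7.46 ± 0.63 and 6.41 ± 0.82, was lower at each later day, with overlap between neighbouring days. The other 7 genes had their highest mean at day 15 and their lowest at day 25, again with no call. Between these days the arrays did not overlap for 2 of the 9 genes, Fbn1 and Mfap4, both lower at day 25, against 6.48% of all genes.

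The tumour and metastasis of rat 7 were low for most of the 9 genes. Set against the day 10 tumour mean, the tumour of rat 7 was lower for 8 of the 9 genes, with a median difference of -1.27, and its metastasis was lower for all 9, with a median of -1.89. The differences were -1.93 in the tumour and -2.72 in the metastasis for Mfap4, -2.56 and -2.59 for Ogn and -1.82 and -2.13 for Fbn1. Of the 12 tumour and metastasis arrays, the metastasis of rat 7 was the lowest for 8 of the 9 genes. For Mfap5 the tumour of rat 8 was the lowest. The share of all genes that were lowest on the metastasis of rat 7 was not counted, so these ranks may not be particular to the 9 genes. Dcn stood apart in these arrays, at 0.07 above the day 10 mean in the tumour of rat 7 and 0.36 below it in the metastasis. The tumour of rat 8 was also lower than the day 10 mean for 8 of the 9 genes, with a median difference of -0.52. That of rat 9 was lower for 4, with a median of 0.06. Tumours of rats 1, 3 and 5 were lower for 7 genes each, with medians of -0.09, -0.15 and -0.13. The tumour and metastasis of rat 7 also had the lowest collagen means, at 10.29 and 10.18 against 11.44 to 12.43 on the other 10 arrays, and the lowest myofibroblast marker means, at 7.88 and 7.66 against 8.60 to 9.22. Their bile duct marker means of 12.44 and 12.57 were within or just above the 11.76 to 12.47 of the others. The hepatocyte mean of 8.28 in the tumour of rat 7 was the lowest among tumours. Blood vessel endothelium markers were at 6.99 in this tumour and 6.79 in the metastasis, against 7.88 to 8.29 on the other 10 arrays. Skeletal muscle markers were at 7.20 in the tumour, against 4.40 to 5.54 in the other tumours, and at 5.95 in the metastasis. The part of these markers in the low values was not tested.

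**Figure D4:**
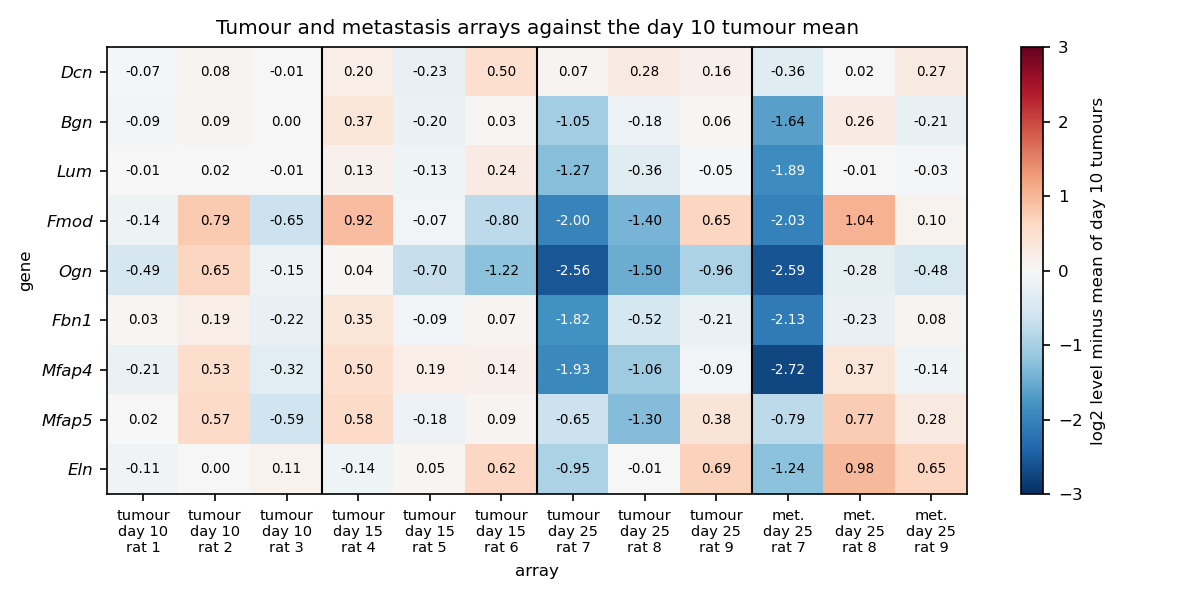
Log2 level of each gene on the 12 tumour and metastasis arrays minus its mean in day 10 tumours, with the value printed in each cell (blue: lower, red: higher). The tumour and metastasis of rat 7 are lower for nearly all genes, down to -2.72 for Mfap4, while Dcn stays between -0.36 and 0.50 on all 12 arrays.

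The peritoneal metastases were compared with the primary tumours of the same 3 rats. limma called none of the 9 genes and 0.338% of all genes. At an unadjusted p under 0.05 there were 0 of the 9, against 6.07% of all genes. The changes ran from -0.20 (Dcn) to 0.62 (Fmod, SE 0.69), with SEs of 0.36 to 0.84. Within rats the metastasis of rat 8 exceeded its tumour by 2.45 for Fmod, 2.07 for Mfap5, 1.43 for Mfap4, 1.22 for Ogn and 1.00 for Eln. In rats 7 and 9 these 5 genes differed by -0.79 to 0.48. Bgn, Lum, Fbn1 and Dcn differed by 0.44, 0.35, 0.29 and -0.26 in rat 8. The tumour of rat 8 was itself the lowest of the 12 tumour and metastasis arrays for Mfap5. It ranked 3 from the lowest for Fmod, Ogn and Mfap4. The metastasis of rat 8 also had a pancreatic acinar marker mean of 10.95 and the highest smooth muscle marker mean of the metastases (7.18, against 5.42 and 5.86). Its skeletal muscle marker mean was 6.46, against 5.95 in rat 7 and 4.40 in rat 9. The part of these markers was not tested. Among the tumours the acinar mean was 8.63 and 8.53 in those of rats 5 and 9.

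Against the day 25 livers, which also serve the day 25 tumour comparison, the metastases were higher for 6 of the 9 genes and lower for none, where 33.4% of all genes were called higher. Mfap5 was at 9.45, 11.01 and 10.52 in the metastases of rats 7, 8 and 9 (change 6.35, SE 0.41, adjusted p = 4.9e-09). Lum was at 10.97, 12.84 and 12.82 (change 5.28, SE 0.84, adjusted p = 5.2e-05), with every metastasis far above every liver. Dcn was at 12.32, 12.70 and 12.95 (change 1.99, SE 0.40, adjusted p = 0.00053). Mfap4 changed by 2.68 (SE 0.60, adjusted p = 0.0012), with 6.83 in rat 7 and 9.92 and 9.41 in the others. Fmod, at 5.47, 8.55 and 7.60, changed by 2.12 (SE 0.69, adjusted p = 0.015). Fbn1, at 8.77, 10.67 and 10.98, changed by 1.74 (SE 0.46, adjusted p = 0.0041). In a fit of the 2 groups alone both were uncalled (adjusted p = 0.063 for Fmod and 0.056 for Fbn1), and Fmod was uncalled without metastasis replicate 2 (1.45, adjusted p = 0.091) or replicate 3 (1.92, adjusted p = 0.051).

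Bgn, Eln and Ogn were uncalled in the metastases. The metastasis of rat 7 was the lowest of the 3 for each of them, as it was for each of the called genes. Bgn was at 9.72, 11.62 and 11.14 (change 0.46, adjusted p = 0.29) and at 1.01 (adjusted p = 0.0058), called, without metastasis replicate 1. Eln was at 5.81, 8.03 and 7.69 (change 0.99, adjusted p = 0.077) and at 1.67 (adjusted p = 0.0011), called, without it. Eln was also called with the rat as a random block (adjusted p = 0.049) or a fixed block (adjusted p = 0.037). Ogn was at 5.49, 7.81 and 7.61, a change of -0.03 (adjusted p = 0.96). Markers of the peritoneal lining, the mesothelium, were called higher in 3 of 7 cases in metastases against liver, where 33.4% of all genes were called higher. The means of these markers were 5.81 to 6.10 in metastases, 5.66 to 6.05 in tumours and 4.98 to 5.49 in livers. Their part in these differences was not tested.

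The levels of the 9 genes were also set against one another. Over the 12 tumour and metastasis arrays, which include 3 pairs from the same rats, Pearson's r between 2 of them had a median of 0.77 over the 36 pairs (0.18 to 0.97). Without the arrays of rat 7 the median was 0.44 over 10 arrays (-0.39 to 0.91). The 8 pairs with Dcn ran from 0.18 to 0.56 over the 12 arrays and from -0.39 to 0.32 without rat 7. The 28 pairs without Dcn ran from 0.59 to 0.97 (median 0.82), and from -0.23 to 0.91 (median 0.59) without rat 7. In the 9 livers Dcn went with Fbn1 (r = 0.94), Bgn (0.88) and the collagen mean (0.97). Its r was 0.63 with Lum and 0.56 with Ogn. Mfap4, Mfap5, Eln and Fmod had r of 0.04, -0.04, -0.17 and -0.18 with it. Liver levels of Mfap5 and Fmod were below the lowest array median, which limits what their r can show. These values describe few arrays that share rats and days.

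For each of the 9 genes the 3 most like it over the 12 arrays are given. Bgn was most like Lox, the lysyl oxidase that cross-links collagen and elastin (r = 0.99, and 0.91 without rat 7), then Sparc (0.99) and the collagen lysyl hydroxylase gene Plod2 (0.98). Lum was most like Tcf4, Plat and Col1a1, each at 0.98, of which Col1a1 was at 0.70 without rat 7. Mfap4 was most like Thbs2, a matricellular thrombospondin (0.99), then Nrp1 and Calml4 (both 0.98). Fmod was most like P4ha3, a collagen prolyl hydroxylase, Sv2a and Qpct, each at 0.97, and Fbn1 like Erap1, Lgals3bp and Itm2c (each 0.98). Ogn was most like Hsbp1, Eva1b and Pdzd11, each at 0.98. Mfap5 had lower values, with Cdk13 at 0.92, Zfp521 and Prnp at 0.91, and so did Eln, with LOC100911627 at 0.96, Stab1 at 0.94 and Rasl11b at 0.93. Dcn was most like Zbtb40 (0.95), Ppm1j (0.92) and Phtf1 (0.89). Without rat 7 the values of all these pairs ran from 0.70 (Lum with Col1a1) to 0.97 (Dcn with Ppm1j), with Fbn1 and Itm2c at 0.78.

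Other small leucine-rich proteoglycans went both ways between tumour and liver, where 36.8% of all genes were called higher and 37.8% lower, shares against which the counts of the following lists stand. Of 9 measured, 2 were called higher over the 3 days and 3 lower (median 0.17). Aspn, which encodes the decorin relative asporin, rose by 2.49 (SE 0.30, adjusted p = 1.2e-06). Omd, which encodes osteomodulin, fell by 2.26 (SE 0.20, adjusted p = 3.5e-08), and Tsku, which encodes the secreted protein tsukushi, fell by 0.94. In RefSeq's gene order Ogn, Omd and Aspn follow one another on rat chromosome 17, so 3 direct neighbours of this family were at 0.39 (uncalled), -2.26 and 2.49. Dcn and Lum are neighbours on chromosome 7, with changes of 3.36 and 6.28. Fmod has Prelp and Optc beside it on chromosome 13, at 2.11, 0.23 (uncalled) and -0.25 (called).

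Among other genes of elastic fibres and microfibrils, 15 of 19 were called higher and 1 lower, with a median of 1.14 against -0.03 over all genes. The cross-linking enzyme genes Lox and Loxl1 rose by 4.43 (SE 0.31) and 3.57 (SE 0.09), and Fbln1, which encodes a fibulin, by 3.34 (SE 0.19). Named after their values were seen, Fbn2, Fbln5 and Mfap2 were uncalled, at 0.11, 0.10 and -0.02, and Adamtsl4 was the gene that fell, by 1.29. All but 1 of the 10 collagens were called higher (median 3.17), with Col1a1 at 5.02 (SE 0.37), Col1a2 at 3.98 and Col12a1 at 3.35. The exception, Col14a1, was at -0.02.

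Large and cell surface proteoglycans were split, with 10 of 20 called higher and 9 lower (median 0.15). Vcan, the large chondroitin sulfate proteoglycan versican, rose by 4.09 (SE 0.30), Esm1, an endothelial proteoglycan, by 2.63 and Srgn, the granule proteoglycan of blood cells, by 2.17. Of 20 enzymes of glycosaminoglycan chain synthesis 9 were called higher and 6 lower (median 0.10), near the shares of all genes, led by the chondroitin synthesis genes Chsy1 (2.73), Chpf (1.34) and Csgalnact2 (1.28). Of 14 proteases that cut or process these proteins 11 were called higher and 1 lower (median 1.26). The macrophage elastase gene Mmp12 rose by 4.60 (SE 0.19), the gelatinase gene Mmp2 by 3.94 (SE 0.25) and Adamts5, a proteoglycan-cutting protease, by 3.33 (SE 0.28). No gene of these 6 lists was called from tumour day 10 to day 25 or between metastases and day 25 tumours. Few genes were called there at all, 0.0563 and 0.338% of all genes.

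**Figure D5:**
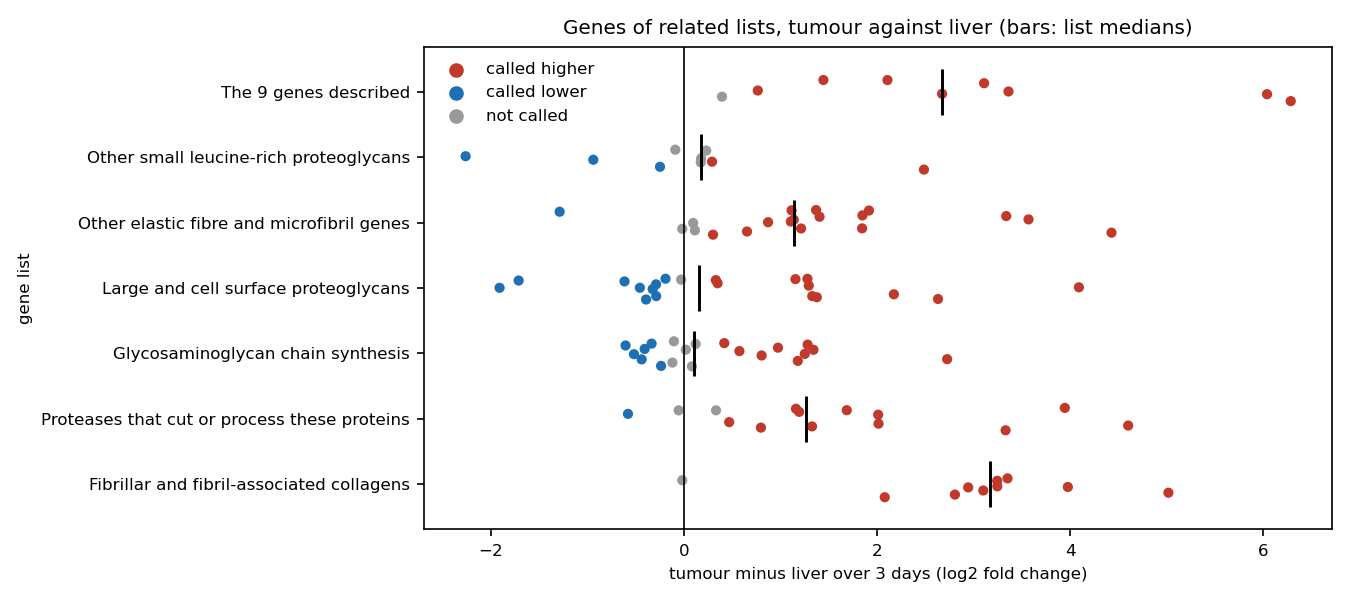
Log2 fold change of tumour against liver over the 3 days for the 9 genes and for 6 lists of related genes, with a point per gene coloured by its call and a bar at each list's median. Collagens (median 3.17) and the 9 genes (2.67) lie to the right, while the other small leucine-rich proteoglycans (0.17) and the chain synthesis enzymes (0.10) lie on both sides of 0.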

How the data were processed

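Biotin-labelled cRNA of 21 samples was measured on Affymetrix arrays. The deposited log2 values were made by the authors with RMA, per the submitters' processing notes (version not given in the sources used here). Of 31099 probe sets, the platform annotation names 1 symbol for 20832, several for 436 and none for 9831. Symbols were updated by gene identifier, which RefSeq (GRCr8) held for 20764, and each gene took its probe set with the highest mean. Differences were tested with limma 3.58.1 in R 4.3.3 on all 21 arrays as 7 group means, without a rat block, after a test on simulated data. The 15 contrasts share groups. Members, lists and the naming rule were chosen with earlier results of these data known: all members, up to 3 called genes per list with the largest change over all days and up to 2 in later comparisons, and the 3 genes most like each member. Tissues of 1 rat are paired by the labels' rat numbers; deviations from group means correlated at 0.04 to 0.58 between them. The number of arrays limits precision. Alternatives were other normalization, probe set choice, a filter, a trended prior, fewer groups, rat blocks and left-out arrays.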

Additional observations from a re-analysis of the deposited data

How the results depend on the processing

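Of 257 repeats of the counts of called members, 252 stayed within 1.5 times the reported count. With the rat as a random replicate block, the test of whether the gap of tumour and liver changed between days 10 and 25 had 1 member called (Dcn) in place of 0. Without the tumour and metastasis of rat 7, an alternative chosen after seeing the data, tumour against liver at day 25 had 8 members called in place of 5. With 1 array left out at a time, the counts ran from 5 to 6 for tumour against liver at day 25, 5 to 8 for metastasis against liver, 1 to 2 for liver day 25 against day 10, 0 to 1 for liver day 25 against day 15 and 0 to 1 for that gap test. They stayed at 8, 7 and 7 for tumour against liver with all days joined, on day 10 and on day 15, and at 0 in the other 7 comparisons. The pairing by rat changed no call beyond those given for Dcn and Eln. Over all single-member changes (2313 repeats), no called change turned its direction, 6 lost and 19 gained a call, and 96 uncalled ones changed sign. Counts over all genes were less stable where they were small. Fits of the compared groups alone called 1 gene in place of 48 for metastasis against tumour, 0 in place of 8 for tumour day 25 against day 10, 557 in place of 1294 for liver day 25 against day 10, 2 in place of 313 for liver day 25 against day 15 and 0 in place of 4 for liver day 15 against day 10. The random rat block called 402 in place of 208 for the gap test of days 10 and 25, and without the tumour and metastasis of rat 7 metastasis against tumour had 166. With 1 array left out at a time, metastasis against tumour ran from 21 (without day 25 tumour replicate 2) to 220 (without replicate 1). Tumour day 25 against day 10 ran from 0 to 159 (without day 25 tumour replicate 3), and the gap test of days 10 and 25 from 30 (without day 10 tumour replicate 3) to 402 (without day 25 liver replicate 3). Liver day 25 ran from 626 (without day 10 liver replicate 2) to 1651 against day 10, and from 155 (without day 15 liver replicate 2) to 522 against day 15, both highest without day 25 liver replicate 3. Liver day 15 against day 10 ran from 0 to 196 (without day 15 liver replicate 2), and 0 to 3 under the other settings, each with all 6 of its arrays. The comparisons with no gene called had up to 1 (tumour day 15 against day 10), 7 (tumour day 25 against day 15), 38 (gap test of days 10 and 15) and 13 (gap test of days 15 and 25). Levels of Mfap5 in liver, and of Lum in the day 10 livers of rats 1 and 3, are near the bottom of the scale, which limits the size of their changes. Those of Fmod in liver lie higher but below the lowest array median, which may limit its change as well. Groups of 3 were too small for the outlier check.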
